A study of Mus musculus with 2 samples.

Results

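Cytosolic ribosomal protein genes encode the proteins that, together with ribosomal RNA, build the small and the large subunit of the ribosomes in the cytoplasm. Most of the proteins are needed in equal numbers, and the transcripts of the family are abundant, short and stable in most cells. Their messages begin with a run of pyrimidines at the 5′ end, through which growth signalling by mTOR raises or lowers their translation. Neutrophils are short-lived cells that leave the bone marrow after much of their protein synthesis is done, and naive lymphocytes are known for a large share of ribosomal protein transcripts.

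The members were the genes whose symbol follows the naming scheme Rpl or Rps with a number and at most 1 of the letters a, x, y, l or p, or is Rpsa, Rplp0, Rplp1 or Rplp2. This rule gave 80 of the 32285 genes in the files, 49 of the large subunit and 31 of the small subunit (Rpsa counted with the small one). The rule reads symbols, not values. It leaves out some true ribosomal protein genes, such as Rps3a1 and Fau, which are given with the related gene lists.

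The study addressed OTUD1, an enzyme that cleaves ubiquitin off its targets, in experimental periodontitis, a model of gum inflammation. Immune cells that had entered the gingiva (gum) of C57BL/6 mice were profiled in 1 library from WT animals and 1 from animals with the genotype Otud1-/-. Both libraries were 10x Genomics 3′ single-cell libraries, which count the 3′ ends of transcripts by barcodes for the cell and by unique molecular identifiers (UMIs) for the molecule. The age, sex and number of the animals, the time of disease and the deleted part of Otud1 are not stated in these sources. With 1 library per genotype nothing checks a difference against replicates, no test was possible, and the genotype cannot be told apart from anything else that set the libraries apart. All intervals are 95% intervals that cover counting error only.

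The WT library held 13267 barcodes with a median of 2241 UMIs, and the library labelled Otud1-/- held 8109 with a median of 3716. After filters 11414 and 6486 cells remained, with medians of 2128.5 and 4178 UMIs. Barcodes found in both libraries numbered 37, of which 22 were kept in each. Transcripts of the targeted gene went against the label: Otud1 stood at 18.6 CPM (UMIs scaled to a common total for each library or class; 17.3 to 19.9) in the WT library and at 33.0 (31.4 to 34.8) in the other. Because the deleted part is unknown here, a count of 3′ ends does not check the genotype. Whether the libraries carry each other's label was not tested, and such an exchange would turn the sign of each ratio below. WT means the library labelled WT, and the second library is called "the library labelled Otud1-/-" throughout. Cell classes were named from marker genes by clustering both libraries together, so a class name means cells that resemble that type. The 6 classes with at least 100 cells in each library were neutrophils, monocytes and macrophages, dendritic cells, B cells, T cells and NK cells.

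The members that stood lowest against the other members in the library labelled Otud1-/- are among the shortest coding sequences of the family. The 3 shown here were chosen for that reason: Rps28 and Rpl38, which had median deviations among the 3 lowest of all members, and Rpl41, the shortest of all 80. Capitals mark the start and the stop codon, each sequence runs 5′ to 3′ on the coding strand, and coordinates are those of the GRCm38 (mm10) build in the GENCODE annotation and span the introns.
Rps28 (chr17:33823208-33824472, minus strand, 3 coding exons, 210 coding bases): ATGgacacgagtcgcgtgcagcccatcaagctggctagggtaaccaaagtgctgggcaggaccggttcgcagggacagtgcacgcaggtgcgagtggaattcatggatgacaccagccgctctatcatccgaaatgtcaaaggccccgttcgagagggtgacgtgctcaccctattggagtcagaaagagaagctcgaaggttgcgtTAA
Rpl38 (chr11:114668812-114672290, plus strand, 4 coding exons, 213 coding bases): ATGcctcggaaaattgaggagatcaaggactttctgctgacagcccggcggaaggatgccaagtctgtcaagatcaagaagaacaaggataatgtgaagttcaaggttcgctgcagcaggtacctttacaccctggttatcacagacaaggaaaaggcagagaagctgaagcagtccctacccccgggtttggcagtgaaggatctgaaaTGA
Rpl41 (chr10:128548387-128548960, minus strand, 3 coding exons, 78 coding bases): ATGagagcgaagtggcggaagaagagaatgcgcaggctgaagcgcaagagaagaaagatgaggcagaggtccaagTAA

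All 80 members have a locus in the annotation, on 19 chromosomes, and their coding lengths run from 78 to 1260 bases with a median of 457.5. The run of pyrimidines near the transcription start is shown for 3 members named in the results, chosen among those with a run of at least 8. They are thus examples of the run, and Rps28 and Rps29 are not among them. The sequences are 30-base windows from RefSeq's GRCm38.p6 promoter table, with the run in capitals.
Rps9 (chr7:3704025-3704054, plus strand): aaccgccttgTCTCTCTTTgtctcgggcct
Rpl38 (chr11:114668568-114668597, plus strand): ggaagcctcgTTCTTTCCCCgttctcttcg
Rps27 (chr3:90213631-90213660, minus strand): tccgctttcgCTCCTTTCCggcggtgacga

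Promoter windows of 300 bases were on hand for 60 of the 80 members, 72 windows in all. An unbroken run of at least 8 C or T on the coding strand within 50 bases to either side of the start was found in 57 of these (79.2%), against 35.7% of all 32851 windows. The letters CCGGAAG on either strand, which ETS family factors can bind, were in 36.1% of the members' windows and 8.86% of all. TATAAA on either strand was in 8.33% and 13.6%. These are matches of letters and say nothing of binding.

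Over all kept cells the 80 genes made up 25.0% of WT UMIs and 24.1% in the library labelled Otud1-/-. Behind these near-equal totals the classes differed widely. Neutrophils held the smallest share of the 6 classes in both libraries and T cells the largest.

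In T cells the share was 30.5% in the WT library and 33.8% in the library labelled Otud1-/-. In B cells it was 28.7% and 30.8%. Counting intervals on these shares are narrow (28.7 to 28.8 for WT B cells) and cover counting error only; values at like depth per cell follow. Dendritic cells stood at 25.2% and 24.6%, and NK cells at 26.0% and 25.3%. Monocytes and macrophages stood at 21.0% and 17.3%. Neutrophils stood at 15.5% (15.4 to 15.5) and 5.11% (5.09 to 5.14).

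As log2 ratios of the shares, the library labelled Otud1-/- over WT, the values were -1.60 in neutrophils, -0.28 in monocytes and macrophages and -0.04 in both dendritic and NK cells. They were 0.10 in B cells and 0.14 in T cells. The sign was thus positive in 2 classes and negative in 4. Without doublet removal the ratio in monocytes and macrophages was -0.11. The values near 0 did not hold their sign: with TMM factors dendritic cells stood at 0.011, and among cells with a Y-linked and no Xist UMI NK cells stood at 0.059. The order of the classes, from T cells through B, NK and dendritic cells and monocytes and macrophages down to neutrophils, was the same in both libraries, although NK and dendritic cells lay within 1 percentage point of each other in each.

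**Figure D1:**
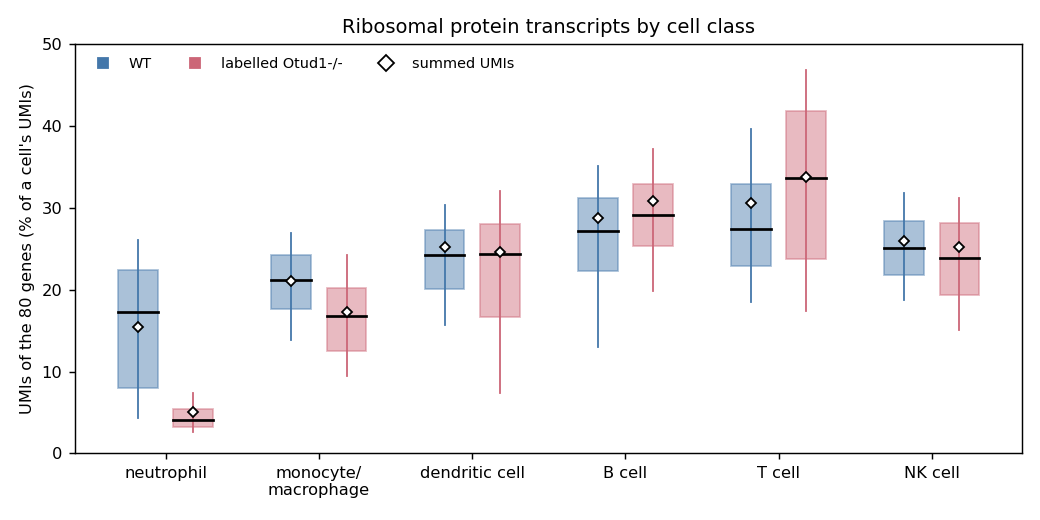
Share of UMIs from the 80 ribosomal protein genes (vertical axis, percent) by cell class and library. Boxes span the quartiles over cells with the median as a black line, whiskers run from the 10th to the 90th percentile, and diamonds give the share of all UMIs summed over the class. The neutrophils of the library labelled Otud1-/- sit lowest, with a cell median of 4.05% against 17.3% in WT.

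Depth differed between the libraries within several classes, so the shares were also taken over cells of like depth, a comparison added after the data were seen. Among cells of 2000 to 4000 UMIs the log2 ratio in neutrophils was -1.76 (252 and 468 cells). Among cells of 1000 to 2000 UMIs the counting interval of that ratio in neutrophils was -1.72 to -1.67 (435 and 135 cells). B cells of that range stood at 21.2% in WT and 18.9% in the other library, a log2 ratio of -0.17 (534 and 220 cells) and the opposite sign to that of the whole class. Among cells of 2000 to 4000 UMIs B cells stood at 27.9% in each library and T cells at 29.3% and 29.1%, so the higher shares of lymphocytes were not seen there. NK cells moved to -0.37, with 106 and 71 cells. Among cells of 4000 to 8000 UMIs the log2 ratio was -0.40 in monocytes and macrophages, -0.30 in dendritic cells, 0.02 in B cells, 0.09 in T cells and -1.52 in neutrophils.

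Shares also differed between the clusters of 1 class. The T cell cluster led by Lef1 and Tcf7, transcription factors of naive T cells, held 37.3% in WT and 41.0% in the other library. The T cell cluster led by Ctla4 and Icos, receptors of activated and regulatory T cells, held 26.1% and 25.9%, and the cluster led by Trdc and Il17a held 23.5% and 22.8%. The Lef1 and Tcf7 cluster stood above the other T cell clusters in both libraries. It held 620 of 1774 T cells in WT and 475 of 804 in the other library. The part of this mix in the T cell ratio was not tested. The main B cell cluster held 29.5% and 31.2%. A smaller B cell cluster of 184 and 140 cells, led by the nuclear RNAs Gm26917 and Lncpint, held 10.9% and 11.0%, with medians of 1154 and 1113.5 UMIs per cell and mitochondrial shares of 8.53% and 8.80%.

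Among classes too small to compare, plasma cells, which secrete antibodies, held 17.0% in WT (283 cells) and 10.6% in the other library (85 cells). Plasmacytoid dendritic cells held 24.2% and 24.9% (605 and 85 cells). Described in WT alone, group 2 innate lymphoid cells held 28.6%, mast cells and basophils 17.8% and erythroid cells 17.8%. Low shares were not limited to neutrophils.

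The neutrophil class was made of unlike sets of cells in the 2 libraries. In WT, 643 of 945 neutrophils were in cluster 9 and 176 in cluster 6. In the library labelled Otud1-/-, 772 of 875 were in cluster 6 and 84 in cluster 9. Cluster 6 was led by Cstdc4, Stfa2l1 and Cxcr2, genes of mature neutrophils, and cluster 9 by G0s2, Mmp9 and Hcar2.

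Within cluster 6 the share was 5.63% in WT and 4.47% in the other library, a log2 ratio of -0.33 (-0.35 to -0.32), at like depth (medians of 2729 and 2685 UMIs). Within cluster 9 it was 19.4% and 15.7% of summed UMIs, but the median cell held 18.3% and 6.05%. Cluster 22, led by the granule genes Ngp, Camp and Ltf of immature neutrophils, held 19.0% over 126 WT cells, and the 19 cells of the other library were too few to use. The share of a neutrophil thus differed more between clusters than between libraries within cluster 6. In cluster 9 the median cell also differed widely between libraries. How much of the class difference goes with the mix of clusters was not tested.

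Transcripts of other cell types were also lower in the neutrophil class of the library labelled Otud1-/-. The 15 B cell markers, all of them detected, summed to 2402 CPM in WT neutrophils and 617 in those of the other library. In cluster 6 they summed to 632 and 445, and in cluster 9, where the ribosomal share was also lower in that library, they were higher there, at 3536 and 4426. The 20 T cell markers summed to 692 and 77.1 CPM in the class, with 1 of them at 0 in the library labelled Otud1-/-. In cluster 6 the T cell markers summed to 233 and 78.5 CPM and in cluster 9 to 821 and 153. They were thus lower in that library in both clusters, unlike the B cell markers. Mitochondrial genes held 3.45% and 1.46% of neutrophil UMIs. The part of these in the ribosomal share was not tested. Without doublet removal the log2 ratio of the neutrophil share was -0.93 in place of -1.60. Fewer transcripts of ribosomal protein genes per cell and more of other transcripts give the same share, since values are relative to the cell's total.

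Member by member, 77 of the 80 genes were abundant enough to compare in each of the 6 classes, with a mean of at least 20 CPM and at least 100 UMIs in the higher library. Ratios are log2 ratios of CPM, the library labelled Otud1-/- over WT, with 0.5 CPM added to each value. In neutrophils 76 of the 77 were at least 1.5-fold lower and 0 higher, where 26.2% of the 3109 genes compared were that much lower and 22.0% higher. The median member stood at -1.65, against 0.02 for all genes compared, and members ranged from -2.43 to -0.16. The member past neither bound was Rps9, a protein of the small subunit close to the messenger RNA channel.

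In cluster 6 alone 23 of 77 members were at least 1.5-fold lower and 0 higher, where 6.5% of 2540 genes were lower and 7.52% higher. The median member stood at -0.39 and the range was -1.19 to 0.42. There 69 members lay below 0 and 8 above. The difference was thus smaller within this cluster, and its sign was the same for most members.

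In the other classes few members passed 1.5-fold, and those that did were lower. In monocytes and macrophages 11 of 77 were lower and 0 higher (3.93% and 5.59% of all genes compared), or 5 and 0 without doublet removal. In dendritic cells 5 were lower and 0 higher (8.4% and 2.53%), and in B cells 3 and 0 (1.88% and 0.645%). In T cells 1 was lower and 0 higher (4.14% and 0.863%), and in NK cells 5 and 0 (5.61% and 6.12%). The counts in dendritic, T and NK cells are near the background share. Median members stood at -0.22, 0.04, 0.19, 0.25 and 0.05 in these 5 classes, in the order given.

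**Figure D2:**
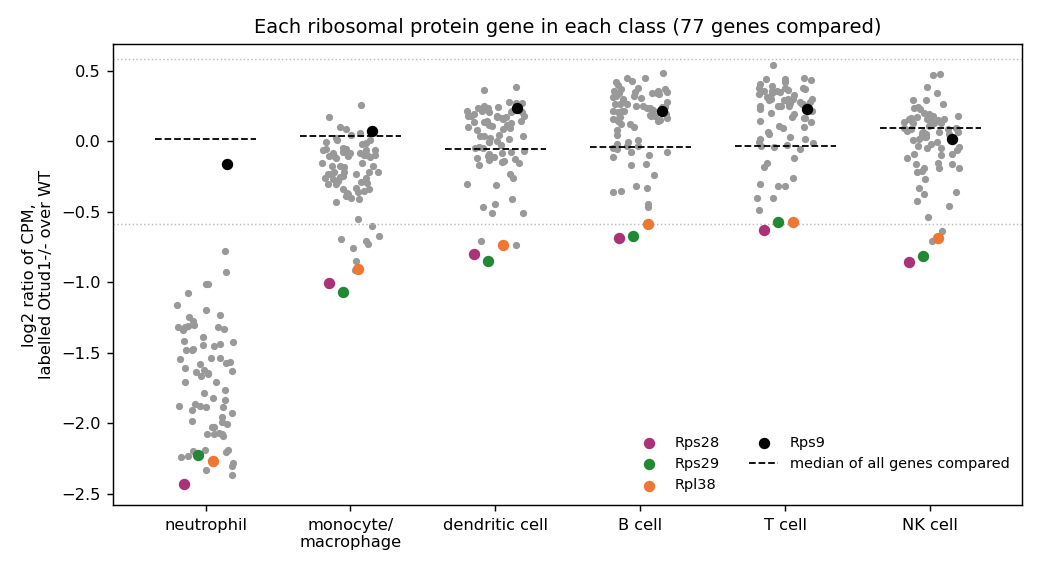
Log2 ratio of CPM (library labelled Otud1-/- over WT) of the 77 members compared, by cell class, with 1 point per gene. Dashed lines give the median of all genes compared, dotted lines mark 1.5-fold. In neutrophils all points lie below the line for all genes, and Rps28, Rps29 and Rpl38 sit at or near the bottom of each other class.

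Rps28, Rps29 and Rpl38 stood low in the library labelled Otud1-/- in each class, also where the median member stood higher. Rps29 and Rps28 belong to the small subunit, and Rps29 is a small zinc-binding protein. Rpl38 belongs to the large subunit and is known from mice with skeletal patterning defects.

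Rps29 stood at 9333 CPM in WT B cells and 5840 in those of the other library, a log2 ratio of -0.68 (-0.69 to -0.66). In T cells it stood at 9741 and 6549, a ratio of -0.57, and in NK cells at 7651 and 4356, a ratio of -0.81. In these lymphocytes Rps29 was lower in the library labelled Otud1-/-, where the median member stood above 0. It stood at 8642 and 4804 in dendritic cells, at 7812 and 3720 in monocytes and macrophages and at 5414 and 1158 in neutrophils. Those log2 ratios were -0.85, -1.07 and -2.23.

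Rps28 stood at 4186 and 2600 CPM in B cells (-0.69, -0.71 to -0.66), at 4367 and 2823 in T cells (-0.63) and at 3314 and 1831 in NK cells (-0.86). In dendritic cells it stood at 3724 and 2140 (-0.80), in monocytes and macrophages at 3237 and 1611 (-1.01) and in neutrophils at 2188 and 404 (-2.43). It was the lowest member in neutrophils, B cells, T cells and NK cells. The Rps28 locus overlaps Kank3 on the other strand.

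Rpl38 stood at 4347 and 2885 CPM in B cells (-0.59), at 4463 and 2999 in T cells (-0.57) and at 4511 and 2803 in NK cells (-0.69). In dendritic cells it stood at 3626 and 2180 (-0.73), in monocytes and macrophages at 3136 and 1672 (-0.91) and in neutrophils at 2303 and 478 (-2.27). The 3 genes were thus lower in the library labelled Otud1-/- in each of the 6 classes.

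To set members against each other without the scale of a library, each member's log2 ratio was taken minus that of the median member in the same class, called its deviation here. Rps28 and Rpl38 deviated by at least 1.5-fold downwards in all 6 classes. In cells of 2000 to 4000 UMIs Rpl38 did not reach 1.5-fold in neutrophils (-0.46) and NK cells (-0.48). The deviations of Rps28 lay between -0.91 and -0.79 and those of Rpl38 between -0.82 and -0.62. Rps29 lay between -0.88 and -0.82 in 5 classes and at -0.58 in neutrophils, just inside the 1.5-fold bound. In cluster 6 the deviations were -0.77 for Rps28, -0.70 for Rpl38 and -0.70 for Rps29.

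Deviations below 0 in all 6 classes were found for 19 members and above 0 for 18, out of 77. The 6 classes come from the same 2 libraries, so a sign shared between classes is not a repeat. The same count over all genes is not given here, so these counts are not read as a trait of the members. After Rps28, Rps29 and Rpl38 the lowest median deviations were those of Rps21 (-0.68), Rps27 (-0.64), Rpl37a (-0.55), Rpl37 and Rpl39 (-0.51 each) and Rpl41 (-0.50). Rps27 did not keep its sign: it deviated by 0.33 in neutrophils and by -0.76 to -0.57 in the others. At the upper end stood Rplp0, the base of the ribosomal stalk, with a median of 0.32, and Rpl10, which joins the large subunit late in its assembly, with 0.31. In dendritic cells Rpl18 deviated by 0.24, in B cells Rpl15 by 0.26, in T cells Rps7 by 0.20 and Rps16 by 0.20, and in NK cells Rps2 by 0.33. Outside neutrophils no member deviated upwards by 1.5-fold, and 5 or 6 in each class deviated downwards. Ratios of all genes compared were also more often 1.5-fold lower than higher in dendritic, B and T cells. The shares were 8.4% and 2.53%, 1.88% and 0.645%, and 4.14% and 0.863%, in that order. Monocytes and macrophages (3.93% and 5.59%) and NK cells (5.61% and 6.12%) went the other way. A downward lean was thus not particular to the members in dendritic, B and T cells.

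The deviations followed the length of the coding sequence in 5 of the classes. Spearman's rho between deviation and coding length over the 77 members was 0.75 in B cells and dendritic cells, 0.74 in T cells, 0.72 in NK cells and 0.71 in monocytes and macrophages, and 0.15 in neutrophils. These are descriptions over genes that share both libraries, and genes are not replicates. With transcript length in place of coding length rho lay between 0.38 and 0.53 in those 5 classes. That length is of 1 annotated transcript per gene, such as 5130 bases for Rps15a and 3706 for Rps20. Which transcript these cells used was not tested, so the values do not rank coding length against transcript length. Against the mean level of the member rho lay between -0.18 and 0.15 in those classes and was 0.24 in neutrophils.

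In B cells the 10 members of at most 300 coding bases had a median deviation of -0.60, the 27 of 300 to 450 bases -0.11, the 19 of 450 to 600 bases 0.07 and the 21 longer ones 0.13. In T cells these medians were -0.65, -0.14, 0.05 and 0.09. The 10 shortest members lay below the median member in B and T cells without exception, and 9 of 10 did in monocytes and macrophages, dendritic cells and NK cells. The exception in those 3 classes was Rps27l, a paralog of Rps27 that p53 induces.

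In the same 5 classes rho was not positive over other genes. Most of these were longer than 600 coding bases (4052 of 4932 in B cells). Medians of other genes of 450 to 600 bases were higher than those of at most 300 in each of these classes. They were 0.18 against 0.12 in B cells, 0.03 against -0.18 in T cells and 0.15 against 0.006 in monocytes and macrophages. In dendritic cells they were 0.11 against -0.03, and in NK cells 0.26 against 0.07. Over 600 bases they were lower again. Against those over 600 bases, genes of at most 300 were also lower in T cells and slightly so in monocytes and macrophages. Over the other genes compared with a coding length, rho between log2 ratio and length was -0.51 in B cells, -0.06 in T cells, -0.19 in monocytes and macrophages, -0.32 in dendritic cells and -0.25 in NK cells, and 0.08 in neutrophils. Among other genes of at most 300 coding bases the median log2 ratio was 0.12 in B cells and -0.18 in T cells, where the shortest members stood at -0.40 and -0.41. In T cells 9.52% of those short other genes were at least 1.5-fold lower, against 3.61% of other genes over 600 bases. These shares were 6.40% and 3.39% in monocytes and macrophages (medians of 0.006 and 0.032) and 2.55% and 1.70% in B cells. They went the other way in dendritic cells (7.01% and 8.87%) and NK cells (2.86% and 5.73%). In neutrophils the median was -0.31 for the short and 0.07 for the long other genes. Whether the way each library was made moved with transcript length was not tested.

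**Figure D3:**
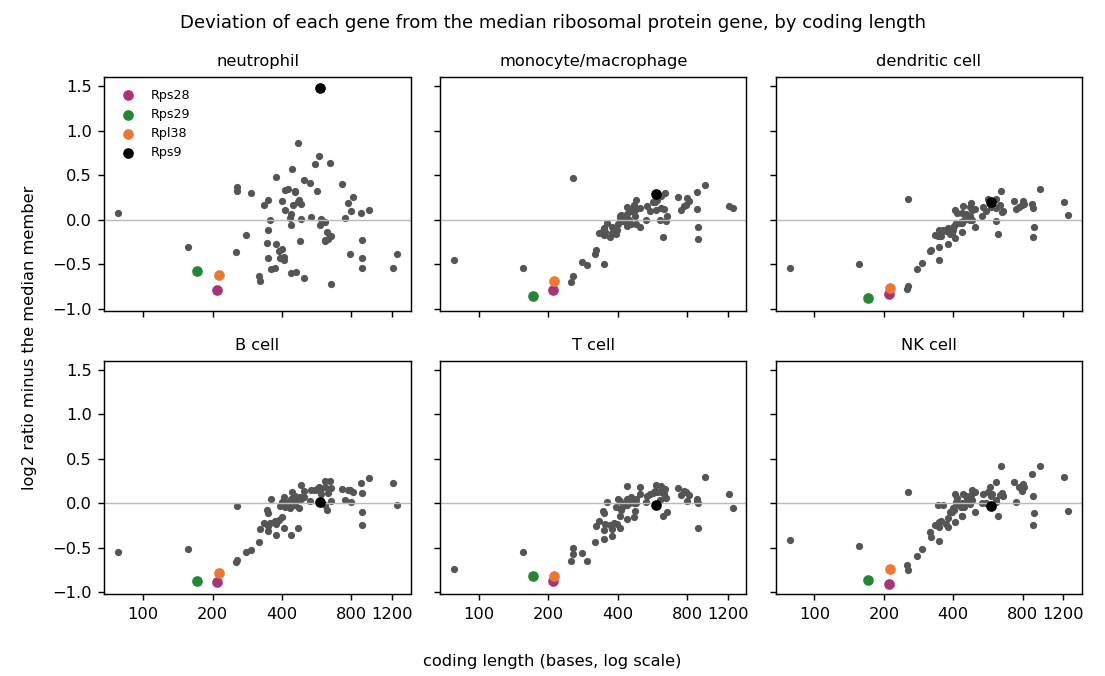
Deviation of each member from the median member (log2, vertical axis) against its coding length in bases (log axis), 1 panel per class, 77 genes each. In the 5 classes other than neutrophils the short genes sit low, with Rps28, Rps29 and Rpl38 between -0.91 and -0.69, and in neutrophils Rps9 stands alone at 1.49.

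In neutrophils the members were spread more widely around their median than elsewhere, with a standard deviation over genes of 0.43 against 0.27 to 0.28 in the other classes. This was not particular to the members: over all genes compared it was 0.95 in neutrophils against 0.31 to 0.51 elsewhere. Of the 77 members in neutrophils 5 deviated upwards by 1.5-fold and 8 downwards, or 1 and 3 without doublet removal. Of all 3109 genes compared there, 22.0% were 1.5-fold higher and 26.2% lower, around a median of 0.02. Deviations of that size were thus not more frequent among the members.

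Rps9 stood at 3030 CPM in WT neutrophils and 2707 in the other library, a log2 ratio of -0.16 (-0.21 to -0.12) and a deviation of 1.49. Rps27a, whose protein is made as a fusion with ubiquitin, stood at 2830 and 1646 CPM, a deviation of 0.87. Rps9 thus stood at nearly the same level in both libraries, where the median member differed by -1.65.

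Rpl9 stood at 2053 and 1079 CPM (deviation 0.72), Rpl10 at 1297 and 643 (0.64) and Rps16 at 2646 and 1256 (0.57). Rpl17 deviated by 0.63. At the lower end, after Rps28, Rpl10a stood at 1129 and 218 CPM (deviation -0.72), Rpl36a at 913 and 181 (-0.68) and Rpl12 at 1955 and 396 (-0.66). Rpl36 stood at 1572 and 322 (-0.64). Rpl38 deviated by -0.62.

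The make-up of the ribosomal pool, meaning the share of each member among the UMIs of all members, was compared between classes within each library. By the rule that the same classes be highest and lowest by 1.5-fold or more in both libraries, 0 of 77 members depended on the class. Rps27l had the widest range, with a log2 distance between its highest and lowest class of 1.99 in WT and 2.46 in the other library. It was highest in dendritic cells in both (0.185% and 0.229% of the pool) and lowest in B cells in WT (0.0468%) and in T cells in the other library (0.0415%). It missed the rule because the lowest classes differed.

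Among the next widest ranges (by the smaller of the 2 libraries) were those of Rpl10 (0.58), Rpl12 (0.55), Rps19 (0.54), Rps9 (0.52), Rps27 (0.48) and Rpl7a (0.47). Rpl10 was highest in monocytes and macrophages and lowest in T cells in both libraries, at 1.05% and 0.704% of the pool in WT and at 1.36% and 0.843% in the other. Its range fell just short of 1.5-fold in WT. Rps19 was highest in B cells and Rpl12 in T cells in both libraries. In the library labelled Otud1-/- alone the ranges were wider for several members, with 1.90 for Rps9, 1.43 for Rps27, 1.29 for Rpl12 and 1.17 for both Rpl3 and Rpl10a, and neutrophils were the highest or lowest class for each of these.

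Between classes of the same library the standard deviation over members of the log2 difference in pool share had a median of 0.23 (0.08 to 0.57 over 30 comparisons). Between libraries of the same class it had a median of 0.28 (0.27 to 0.43 over 6). The closest pools were those of WT monocytes and macrophages and WT dendritic cells (0.08). The most distant pools of 1 library were those of neutrophils and T cells in the library labelled Otud1-/- (0.57).

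Cluster 6 neutrophils had a pool of their own in both libraries, set here against the mean of the 5 other classes in the same library. Rps9 made up 3.60% of the WT pool of this cluster against 1.53% in the other classes, and 6.06% against 1.75% in the library labelled Otud1-/-. Rps27 made up 4.36% against 2.61% and 4.30% against 1.74%. Of the 77 members compared these were the 2 at least 1.5-fold higher in both libraries.

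The 4 members at least 1.5-fold lower in both were Rpl3, a core protein of the peptidyl transferase region, Rpsa, Rps18 and Rps4x. Rpl3 made up 0.445% of the WT pool against 0.706%, and 0.342% against 0.858% in the other library. Rpsa made up 0.932% against 1.47%, and 0.720% against 1.67%. The library labelled Otud1-/- showed more such members, with 7 higher and 19 lower, against 2 and 4 in WT. The pools were of unlike size, with 31437 UMIs from 176 cells in WT and 126449 from 772 cells in the other library. The B cell marker sums in this cluster were 632 CPM in WT and 445 in the other library, and the T cell marker sums 233 and 78.5. These sums are to be read beside the pool shares, and their part was not tested.

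**Figure D4:**
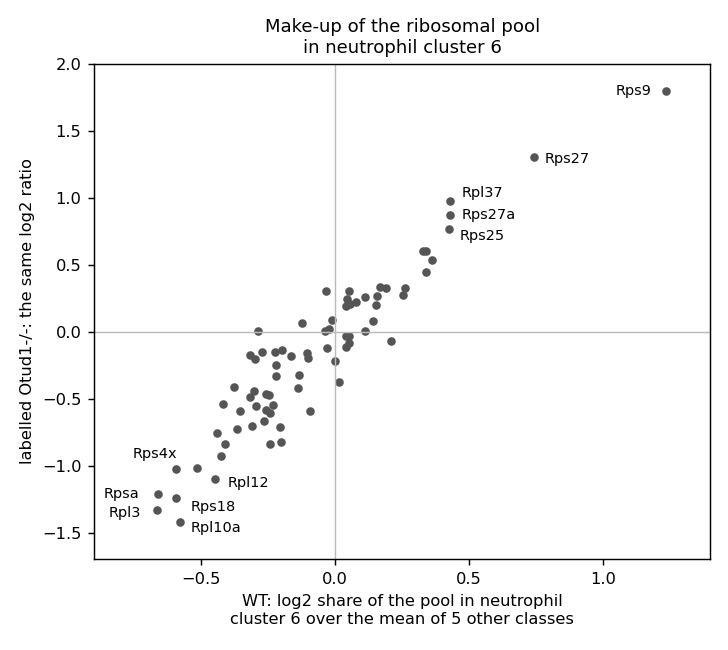
Log2 ratio of each member's share of the ribosomal pool in neutrophil cluster 6 to its mean share in 5 other classes, WT on the horizontal and the library labelled Otud1-/- on the vertical axis, 1 point per gene (77). Rps9 stands farthest out in both (1.23 and 1.79), followed by Rps27 (0.74 and 1.30), with Rpl3 and Rpl10a at the other end.

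Between the libraries within cluster 6, Rps9 stood at 2027 CPM in WT and 2710 in the other library, a log2 ratio of 0.42 (0.33 to 0.51), from 1132 and 7665 UMIs. Rps27a stood at 1266 and 1530 CPM (0.27, 0.16 to 0.39). Rps29 stood at 2217 and 1044 CPM (-1.09, -1.18 to -0.99), and Rps28 at 752 and 337 (-1.16). Proteins of the same subunit thus had transcript ratios of opposite sign between these sets of cells, with the median member at -0.39.

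Levels over all kept cells were compared between members as UMIs per transcript end, without division by length, since the assay counts each transcript at its 3′ end. Among the highest members by mean CPM were Rps24 (6908 in WT and 7184 in the other library), Rps29 (8147 and 4588), Rpl13 (5361 and 6030) and Rps27 (6388 and 4419). Rps29 led the order in WT and was behind Rps24, Rpl13 and other members in the library labelled Otud1-/-.

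At the lower end 3 members fell under the minimum in every class. Rpl10l, a retrogene of Rpl10 known from the testis, had 0 UMIs in both libraries, which allows at most 0.0883 CPM in WT and 0.0789 in the other at a floor of 3 counts. Rpl39l had 25 and 19 UMIs, and Rpl3l, known from muscle, had 84 and 65. Of those Rpl3l UMIs, 15 in WT and 33 in the other library came from neutrophil cluster 6. The lowest members compared were Rps27l (260 and 251 CPM) and Rpl4 (953 and 986), so these paralogs lay far below the rest.

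The X-linked members did not move together. Rpl10 deviated upwards in each of the 6 classes, for example in NK cells with 2466 CPM in WT and 3422 in the other library. Rps4x, which has no Y-linked copy in mice, stood at 3247 and 4112 CPM in B cells and at 1745 and 427 in neutrophils. Rpl36a stood at 1946 and 1927 CPM in T cells and at 1202 and 820 in monocytes and macrophages. Rpl39 stood at 5359 and 4344 CPM in T cells and at 3630 and 2151 in monocytes and macrophages.

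Reads of ribosomal protein genes can also be assigned to processed pseudogenes and paralogs, and how the counting split them is not stated. The files held 5 rows with such pseudogene symbols, of which Rpl10-ps3 had 2263 and 2523 UMIs and Rpl9-ps6 2235 and 2409, each far below its parent gene. Rps27rt, a close copy of Rps27, had 8319 and 7527 UMIs against 217059 and 168033 for Rps27. Values of Rpl9, Rpl10, Rps27, Rpl36a and other members with such copies are uncertain, to an extent that these counts do not bound. An annotated coding gene on the same strand overlaps 3 members, Rpl13, Rpl13a and Rps10, and coding genes on the other strand overlap 15.

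Ribosomal proteins outside the naming rule leaned the same way as the members. In neutrophils 6 of the 7 compared were at least 1.5-fold lower and 0 higher, with a median of -1.50 where all genes compared stood at 0.02. Rpl36al, a paralog of Rpl36a, stood at -2.09, Rack1, a scaffold on the small subunit, at -2.05 and Rpl22l1, a paralog of Rpl22, at -1.89. Rps3a1 stood at 2090 CPM in WT neutrophils and 738 in the other library (-1.50). Fau, which encodes a small subunit protein fused to a ubiquitin-like one, was the exception, at 5351 and 4758 CPM (-0.17, -0.21 to -0.13). In the 5 other classes at most 1 of this list passed 1.5-fold.

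Many other genes of translation were also lower in neutrophils, to be read against the 26.2% lower and 22.0% higher of all genes compared there. Of 7 elongation genes 5 were lower and 0 higher (median -1.35), among them Eef1g (-1.89), Eef1a1, which brings aminoacyl-tRNA to the ribosome (-1.41), and Eef1b2 (-1.35). Of 24 initiation genes 16 were lower and 1 higher (median -0.93), with Eif3e, Eif3c and Eif3i, subunits of the eIF3 complex, at -2.07, -1.83 and -1.79. The summed level of the whole initiation list was nearly equal, at 6558 and 6279 CPM, of which Eif1, the higher gene, made up 2503 and 3965 CPM. The files held 31 genes of ribosome making, which summed to 1959 CPM in WT and 590 in the other library. Of these, 8 passed the minimum level, which a gene could reach through its level in 1 library alone. All 8 were lower (median -1.85). Among these were Gnl3 (-2.43), the nucleolar protein gene Npm1 (-2.39; 445 CPM in WT and 84.7 in the other library) and Nop58 (-1.97).

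The growth control list holds 16 genes of the mTOR pathway and its targets, of which 7 were compared. It did not lean to a side, with 1 higher, 1 lower and a median of 0.01. The higher gene was Eif4ebp1, which blocks initiation when mTOR is inactive, at 53.0 CPM in WT and 99.8 in the other library (0.91, 0.59 to 1.25). The lower one was Larp4 (-1.74), and Eif4ebp2 stood at -0.51. Of 78 nuclear genes of the mitochondrial ribosome 13 were compared, of which 5 were lower and 1 higher (median -0.52). Mrpl23 stood at -2.43 and Mrps14 at -1.23, while Mrpl33 stood at 441 CPM in WT and 969 in the other library (1.13, 1.03 to 1.24).

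All 12 mitochondrially encoded genes compared were at least 1.5-fold lower in neutrophils (median -1.29), with mt-Nd4l at -2.13, mt-Nd3 at -1.72 and mt-Atp8 at -1.59. In the other classes the lists of elongation and initiation had no gene past 1.5-fold in either direction. Their medians there lay between 0.00 and 0.26 and were positive in B cells for both (0.26 and 0.13), where the median member also stood above 0. In monocytes and macrophages both medians were slightly above 0 (0.03 and 0.01) where the median member stood at -0.22. The growth control list had medians of 0.01 in neutrophils and -0.13 in B cells.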

How the data were processed

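The authors deposited raw UMI counts per gene and barcode, as whole numbers without normalisation. Matrices came from Cell Ranger 6.0.1, per the file headers; Cell Ranger 5.0.0, Seurat 3.2.3 and the mm10 build are named in the submitters' processing notes. Members, lists and alternatives were chosen with earlier results of these data known. Barcodes under 200 genes or over 15% mitochondrial UMIs were dropped (475 and 1152 barcodes failed the latter). The highest scores of a simulation of 2 artificial doublets per cell were then removed, at 0.8% per 1000 barcodes (1355 and 450 cells). Both libraries were clustered together without integration and without ribosomal genes (2000 variable genes, 30 principal components, 20 neighbours, Leiden resolution 1; Python 3.11.15, scikit-learn 1.9.0, leidenalg 0.10.2). A cluster took the class with at least 3 markers among its top 50 genes, without a tie and with no other class having more in its top 10, a rule set after seeing the data. Counts were summed per class and library and scaled to CPM. Shares carry exact Clopper-Pearson intervals, gene ratios exact conditional binomial ones, Otud1 an exact Poisson one, and share ratios a normal approximation. Lengths came from GENCODE vM21. Named genes were Rps28, Rps29 and Rpl38, the 6 highest and 6 lowest deviations in neutrophils, the 3 and 3 in each other class, the 5 highest and 5 lowest levels, the 8 widest ranges of pool share, X-linked members and, per list, the 3 largest ratios in neutrophils. Others were named after their values were seen, and some that the rule names are not reported here. The ratio and interval code was tested on simulated counts.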

Additional observations from a re-analysis of the deposited data

Results flagged for a closer look

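The log2 ratio of the ribosomal share, the library labelled Otud1-/- over WT, had opposite signs in different classes. It was negative in neutrophils (-1.60), monocytes and macrophages (-0.28), dendritic cells (-0.037) and NK cells (-0.039), and positive in B cells (0.10) and T cells (0.14). With 1 library per genotype the difference between classes was not tested.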

How the results depend on the processing

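There were no replicates to leave out, and no paired analysis was possible because each genotype has 1 library. The share in neutrophils was negative under every setting run (log2 ratio -1.68 as the mean over cells, -0.93 without doublet removal, -1.58 at Leiden resolution 2, -1.64 with TMM factors, -1.61 with a median of ratios, -1.38 in cells with a Y-linked and no Xist UMI, -0.33 in cluster 6 alone, -1.76 in cells of 2000 to 4000 UMIs). In the same order of settings, with at most 5% mitochondrial UMIs second and up to the main cluster of the class, monocytes and macrophages stood at -0.32, -0.30, -0.11, -0.31, -0.33, -0.32, -0.22 and -0.33. Dendritic cells stood at -0.091, -0.047, -0.023, -0.055, 0.011, 0.018, -0.063 and -0.012, so that their sign turned under both scalings. B cells stood at 0.13 as the mean over cells, 0.086 at 5% mitochondrial UMIs, 0.14 under both scalings, 0.077 in the main cluster and 0.0013 in cells of 2000 to 4000 UMIs. T cells stood at 0.22, 0.16, 0.17 (TMM), 0.18 (median of ratios), 0.10 (Y-linked), 0.14 (main cluster) and -0.010 (2000 to 4000 UMIs), where the sign turned. NK cells stood at -0.11, -0.046, -0.020 (no doublet removal), -0.025 (resolution 2), -0.14 (TMM), -0.13 (median of ratios), 0.059 (Y-linked cells, where the sign turned) and -0.37 (2000 to 4000 UMIs). The cause was not tested.

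Members past 1.5-fold numbered 23 in place of 76 in neutrophil cluster 6, and 5 in place of 11 in monocytes and macrophages without doublet removal. In T cells they numbered 3 (Y-linked), 2 (main cluster), 2 (no minimum level) and 5 (2000 to 4000 UMIs) in place of 1. In NK cells they numbered 3 (Y-linked) and 14 (2000 to 4000 UMIs) in place of 5. Deviations past 1.5-fold numbered 4 without doublet removal and 8 in cluster 6 in place of 13 in neutrophils, and 2 in place of 6 in NK cells of 2000 to 4000 UMIs. Members whose share depended on the class numbered 1 in place of 0 at 5% mitochondrial UMIs and without doublet removal. Rps28, Rps29 and Rpl38 deviated downwards under each setting run, with the values nearest to 0 at -0.45 in neutrophils and -0.48 elsewhere. TMM factors left the counts of the 7 translation lists in neutrophils where they were.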
